A study of Mus musculus with 6 samples.

Results

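Cholesterol synthesis, its control by sterol regulatory element-binding proteins (SREBPs) and sterol transport were examined in 3T3-L1 cells with and without Ube3d. The set holds 35 genes, selected by symbol from a list of pathway members, out of 24421 genes in the count table. All 35 were in the table and passed the filter on low counts. 3T3-L1 is a mouse embryonic fibroblast line that can be turned into fat cells and serves as a preadipocyte model. The cells here were undifferentiated and in log-phase growth, in high-glucose medium with serum, and were kept under 80% confluence. The first group was wild type for Ube3d and the second carried a Ube3d knockout, with 3 libraries of ribosomal RNA-depleted total RNA in each. Ube3d encodes a ubiquitin ligase. Neither the clonal origin of the knockout cells nor the part of the gene that was removed is stated in the sources used here. The titles call the libraries biological replicates without saying how separate the cultures were, so p-values measure the spread between these libraries only.

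Cells make cholesterol from acetyl-CoA. The mevalonate branch builds isoprenoid units and joins them to farnesyl diphosphate, and the sterol branch turns farnesyl diphosphate into squalene, lanosterol and cholesterol. The enzyme genes are known targets of SREBP2, a transcription factor that is held in the endoplasmic reticulum by SCAP and the INSIG proteins while sterols are plentiful and is released by cleavage in the Golgi when they run low. Liver X receptors (LXRs) sense oxysterols and are known to induce the efflux pumps ABCA1 and ABCG1. SREBP-driven lipid synthesis is part of the programme by which preadipocytes become fat cells.

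The libraries held between 23767181 and 29389480 gene counts. Ube3d, listed under its older symbol Ube2cbp, had 145, 229 and 173 counts in the wild-type libraries and 56, 43 and 53 in those of the knockout (log2 −1.86, SE 0.15). All 9 fibroblast and preadipocyte markers were above 1 CPM (counts scaled to a common library total) in every library, and their summed level was 11604 to 11933 CPM in wild type and 10739 to 10950 CPM in the knockout. Of the 9, 6 fell, among them Col1a1 (log2 −1.18), Ly6a (−1.15), Pdgfrb (−0.70) and Col1a2 (−0.67), while Dlk1 (1.12) and S100a4 (0.31) rose and Vim was not called, so that some moved as far as the sterol enzymes. Of 7 mature adipocyte markers, Lep and Retn had no count, and the summed level was 3.47 to 3.92 CPM in wild type and 0.904 to 1.21 CPM in the knockout, most of it from Fabp4. The 6 macrophage and leukocyte markers summed to 5.35 to 6.67 CPM in wild type and 6.68 to 7.30 CPM in the knockout, with Adgre1 at 0. The 5 epithelial markers summed to 0.249 to 0.623 CPM over all libraries, with Epcam and Krt18 at 0. The 4 endothelial markers summed to 0.600 to 1.05 CPM in wild type and 1.30 to 2.27 CPM in the knockout. The higher sum came from Vwf, at 0.285 CPM in wild type and 1.27 CPM in the knockout. Cdh5 went the other way, from 0.357 to 0.183 CPM. Pecam1 (0.175 and 0.199 CPM) and Kdr (0.0112 and 0.0119 CPM) differed little. The part of these differences in the results was not tested. Levels are CPM after TMM scaling (trimmed mean of M values, which corrects for libraries of different composition), as mean ± SD over 3 libraries. A log2 fold change is knockout over wild type from edgeR's quasi-likelihood test, with its SE, and a gene is said to have risen or fallen at an adjusted p under 0.05 over the 12947 genes tested. In bulk RNA, fewer cells of a type and less RNA per cell cannot be told apart.

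Promoter letters were examined because most enzyme genes fell together. The 250 bases before each RefSeq start (GRCm38.p6) were found for 28 of the 35 genes, among them 16 of the 19 synthesis enzymes. No promoter was found for Fdps, Fdft1 and Sqle. A gene with several starts was counted when any of them held a match. They were searched on both strands for TCACNCCAC, a form of the sterol element bound by SREBPs, for the CCAAT box bound by NF-Y, written CCAAT, and for the GC box bound by Sp1 factors, written GGGCGG. NF-Y and Sp1 are known partners of SREBPs at sterol genes. The last 150 bases before the start are shown for the gene with a sterol element (Hmgcs1), for 3 enzyme genes with large falls (Idi1, Nsdhl, Msmo1) and for the enzyme gene that was not called (Ggps1). Capitals mark the matches to the 3 motifs on either strand. Matches further from the start are not shown. In all 250 bases, Ggps1, Hmgcs1 and Msmo1 held 3 CCAAT boxes each, and Idi1 and Nsdhl held 2 each.

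Hmgcs1 (chr13:119690201-119690350, plus strand): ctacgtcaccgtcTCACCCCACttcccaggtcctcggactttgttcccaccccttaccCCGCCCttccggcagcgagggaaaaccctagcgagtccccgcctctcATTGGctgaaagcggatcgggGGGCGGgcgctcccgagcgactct

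Idi1 (chr13:8885456-8885605, plus strand): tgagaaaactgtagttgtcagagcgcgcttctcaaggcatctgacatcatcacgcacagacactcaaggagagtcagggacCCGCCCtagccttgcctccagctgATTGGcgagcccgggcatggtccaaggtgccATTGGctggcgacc

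Nsdhl (chrX:72918371-72918520, plus strand): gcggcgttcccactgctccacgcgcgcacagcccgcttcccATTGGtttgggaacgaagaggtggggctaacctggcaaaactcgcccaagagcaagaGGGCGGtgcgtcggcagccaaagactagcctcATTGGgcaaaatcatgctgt

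Msmo1 (chr8:64733579-64733728, minus strand): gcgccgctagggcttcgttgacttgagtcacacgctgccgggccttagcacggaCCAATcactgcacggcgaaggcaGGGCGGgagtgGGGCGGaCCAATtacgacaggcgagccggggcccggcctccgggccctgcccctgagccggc

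Ggps1 (chr13:14063489-14063638, minus strand): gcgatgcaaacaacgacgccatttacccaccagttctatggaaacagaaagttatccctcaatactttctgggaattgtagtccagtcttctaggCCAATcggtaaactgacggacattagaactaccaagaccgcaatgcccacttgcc

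The first capital run of Hmgcs1 is the sterol element, 137 to 129 bases before the start. It was the only such match among the 16 enzymes, and 1.22% of the 27025 genes in the promoter table held one. A CCAAT box was present in 15 of the 16 enzymes, all but Acat2, against 37.5% of all genes and 40.7% of the 9722 tested genes with a promoter in the table. For Dhcr7 and Pmvk these boxes lay only in promoters of other starts, chr7:143829964-143830263 and chr3:89454291-89454590. Their counted genes begin at 143823167 and 89459118. A GC box was present in 14 of the 16, all but Pmvk and Ggps1, against 35.4% of all genes and 63.5% of the tested ones. Among the 12 other sterol genes with a promoter, 7 held a CCAAT box and 9 a GC box. These are matches of letters in a window, and binding was not measured.

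Of the 35 genes, 23 fell, 7 rose and 5 were not called. Over all tested genes 61.4% were called, 31.2% lower and 30.3% higher, so that a call alone does not set a gene apart here. With a change of at least 1.5-fold asked as well, 19 of the 35 fell and 0 rose, against 6.29% and 9.52% of all tested genes. Abcg1, counted among the 23 and the 19, passed the filter on low counts through its wild-type libraries only. Every knockout library lay below every wild-type library for 23 genes and above for 8, against 32.5% and 31.8% of all tested genes. The falls lay in the synthesis enzymes, Srebf2, Insig1, Stard4 and the efflux pump gene Abca1, apart from the call of Abcg1 with that limit. Most transport genes, Srebf1, Scap and Nr1h2 rose, as the plot of fold changes by pathway group shows.

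**Figure D1:**
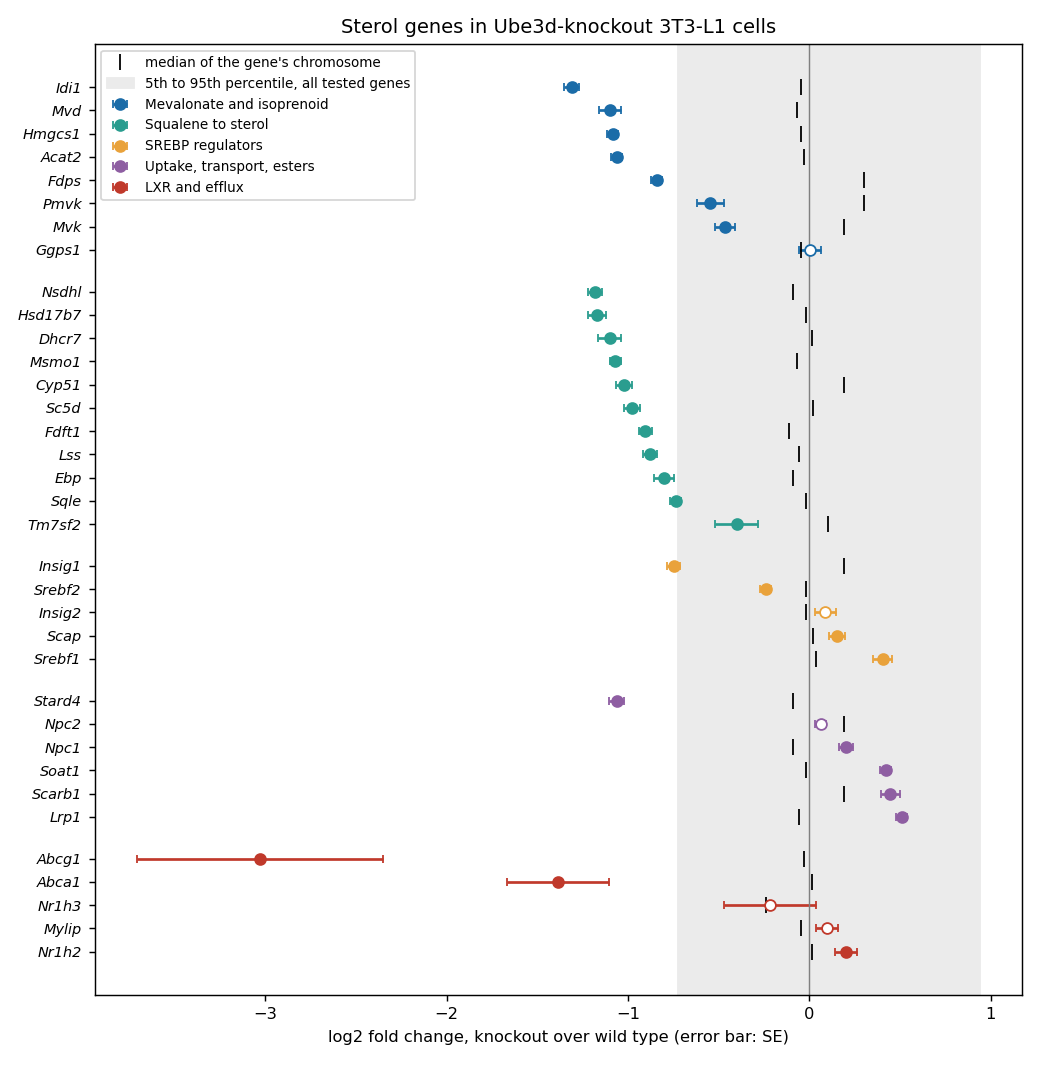
Fold change of each sterol gene (x axis: log2 fold change, knockout over wild type, with its SE; y axis: genes by pathway group). Filled points passed an adjusted p under 0.05, black ticks are the median of the gene's chromosome, and the grey band spans the 5th to 95th percentile of all tested genes, −0.73 to 0.94. Of the 19 synthesis enzymes, 15 fell at least 1.5-fold, while Ggps1 sits at 0.00.

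The mevalonate branch was lower in the knockout from its first step to farnesyl diphosphate. Of 8 genes, 7 fell and 1 was not called, with a median log2 fold change of −0.95 against 0.004 over all tested genes. The summed level of the 8 was 1064, 1042 and 1070.4 CPM in wild type and 540.2, 539 and 533 CPM in the knockout. Idi1, the isomerase that makes dimethylallyl diphosphate, had the largest fall of the 19 enzymes. It is a gene of 5 exons on chromosome 13, 8885606 to 8892396 on the plus strand. Its level was 98.8, 95.3 and 97.6 CPM in the wild-type libraries and 38.8, 39.2 and 39.6 CPM in the knockout. The groups were far apart and the knockout libraries within 1 CPM of each other. The fall was 2.48-fold (log2 −1.31, SE 0.04, edgeR adjusted p = 7.9e-40).

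Acat2, which joins 2 acetyl-CoA into acetoacetyl-CoA, stood at 272, 259 and 267 CPM in wild type and at 130.5, 126 and 125 CPM in the knockout (log2 −1.06, SE 0.03, edgeR adjusted p = 4.6e-42). Acat3, whose transcript matches 97.7% of 1477 aligned bases of Acat2, is listed separately and fell less, from 121 ± 0.962 to 101 ± 0.609 CPM (log2 −0.26, SE 0.03). How reads that fit both genes were treated is not stated, and the split between them is uncertain. Hmgcs1, the HMG-CoA synthase that feeds the pathway, stood at 379, 376 and 404 CPM in wild type and at 187, 179.8 and 179 CPM in the knockout (log2 −1.09, SE 0.03). Every knockout library of both Acat2 and Hmgcs1 was under every wild-type library by a wide margin.

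The 3 steps that phosphorylate and decarboxylate mevalonate did not fall alike. Mvd, the decarboxylase, stood at 36.2, 39.9 and 36.9 CPM in wild type and at 17.1, 17.6 and 18.2 CPM in the knockout, a 2.14-fold fall (log2 −1.10, SE 0.06). The kinases before it fell less. Mvk went from 40.6 ± 1.79 to 29.4 ± 1.75 CPM (log2 −0.46, SE 0.05) and Pmvk from 20.4 ± 1.07 to 14.0 ± 1.43 CPM (log2 −0.55, SE 0.07). Mvk lies on chromosome 5 and Pmvk on chromosome 3, where the median tested gene was higher in the knockout by 0.19 and 0.30. Set against those medians, the kinases were lower by 0.66 and 0.85 on the log2 scale. The difference between the kinases and Mvd was not tested.

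At the branch point, the prenyl transferases went apart. Fdps, which makes farnesyl diphosphate, stood at 189, 187 and 184 CPM in wild type and at 102, 107 and 103 CPM in the knockout (log2 −0.84, SE 0.03, edgeR adjusted p = 2.1e-35). Ggps1, which uses farnesyl diphosphate to make the geranylgeranyl group of prenylated proteins and so leads away from cholesterol, stood at 24.4, 23.5 and 23.4 CPM in wild type and at 23.9, 23.8 and 23.7 CPM in the knockout. Its groups overlapped (log2 0.00, SE 0.06, edgeR adjusted p = 0.96). It was the only one of the 19 enzymes that was not called. Fdps and Idi1 have 6 and 4 processed pseudogenes of at least 90% identity over at least 300 bases in the mouse annotation. Pseudogenes also match Ggps1 (97.2% of 903 aligned bases), Fdft1 (97.4% of 1249) and Sc5d (91.9% of 307). Fdps matches the protein-coding gene Gm43738 as well, over 929 bases. None of these similar genes is in the count table.

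All 11 genes of the sterol branch, from squalene to cholesterol, fell. Their median log2 fold change was −0.98, and 10 of the 11 fell at least 1.5-fold. Their summed level was 1269.8, 1234 and 1279 CPM in wild type and 654, 662 and 631 CPM in the knockout. Over both branches, the 19 enzymes summed to 2319 ± 38.7 CPM in wild type and 1186 ± 20.1 CPM in the knockout, a ratio of 0.512.

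The enzymes that commit carbon to sterols came first. Fdft1, squalene synthase, stood at 134, 128 and 129.8 CPM in wild type and at 68.7, 72.1 and 68.4 CPM in the knockout (log2 −0.90, SE 0.04). Sqle, the squalene epoxidase, stood at 241, 235 and 239 CPM in wild type and at 147, 146 and 137 CPM in the knockout (log2 −0.74, SE 0.03). Lss, which closes the rings to lanosterol, stood at 111, 115 and 113 CPM in wild type and at 60.9, 65.5 and 58.2 CPM in the knockout (log2 −0.88, SE 0.04). No knockout library of these 3 genes reached a wild-type library. Of the exon bases of Fdft1, 20.9% overlap exons of Ctsb on the other strand. Ctsb was higher in the knockout (log2 0.19), and the strand setting used for counting is not stated in those sources. Smaller overlaps on the other strand touch Lss (6.02% of exon bases), Npc1 (3.15%) and Srebf1 (2.49%).

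The enzymes that remove the methyl groups of lanosterol followed, with 4 that fell more than 2-fold and Tm7sf2 that fell least. Cyp51, the lanosterol demethylase, stood at 80.0, 79.3 and 77.0 CPM in wild type and at 39.7, 38.9 and 37.7 CPM in the knockout (log2 −1.02, SE 0.04), although the median gene of its chromosome 5 was higher. Msmo1, the methylsterol monooxygenase, stood at 323, 318 and 333 CPM in wild type and at 155, 158 and 151 CPM in the knockout (log2 −1.07, SE 0.03). Nsdhl, the sterol dehydrogenase of the same demethylation complex, stood at 125, 118 and 123 CPM in wild type and at 55.7, 53.0 and 52.0 CPM in the knockout (log2 −1.18, SE 0.04). Nsdhl had the largest fall of the sterol branch at 2.27-fold. Hsd17b7, the reductase that completes that complex, stood at 65.4, 61.8 and 66.3 CPM in wild type and at 29.2, 29.2 and 27.5 CPM in the knockout (log2 −1.17, SE 0.05). Tm7sf2, a sterol C14 reductase, had low levels of 7.32, 7.81 and 5.87 CPM in wild type and 4.83, 5.72 and 5.34 CPM in the knockout. It had the smallest fall of the branch (log2 −0.40, SE 0.12, edgeR adjusted p = 0.0026), and its groups nearly touched. Some annotated transcripts of Tm7sf2 and its neighbour Vps51, which was higher in the knockout (log2 0.64), share 532 bases, so that the count of Tm7sf2 is less certain.

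The last steps fell as well. Ebp, the sterol isomerase, stood at 43.9, 39.7 and 44.5 CPM in wild type and at 24.0, 24.9 and 24.3 CPM in the knockout (log2 −0.80, SE 0.06). Sc5d, the desaturase that follows it, stood at 103, 97.5 and 112 CPM in wild type and at 52.9, 53.9 and 51.9 CPM in the knockout (log2 −0.98, SE 0.04). Dhcr7, which makes cholesterol from 7-dehydrocholesterol, stood at 35.2, 34.2 and 34.9 CPM in wild type and at 15.96, 15.1 and 17.5 CPM in the knockout (log2 −1.10, SE 0.06). The groups did not overlap in any of the 3.

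**Figure D2:**
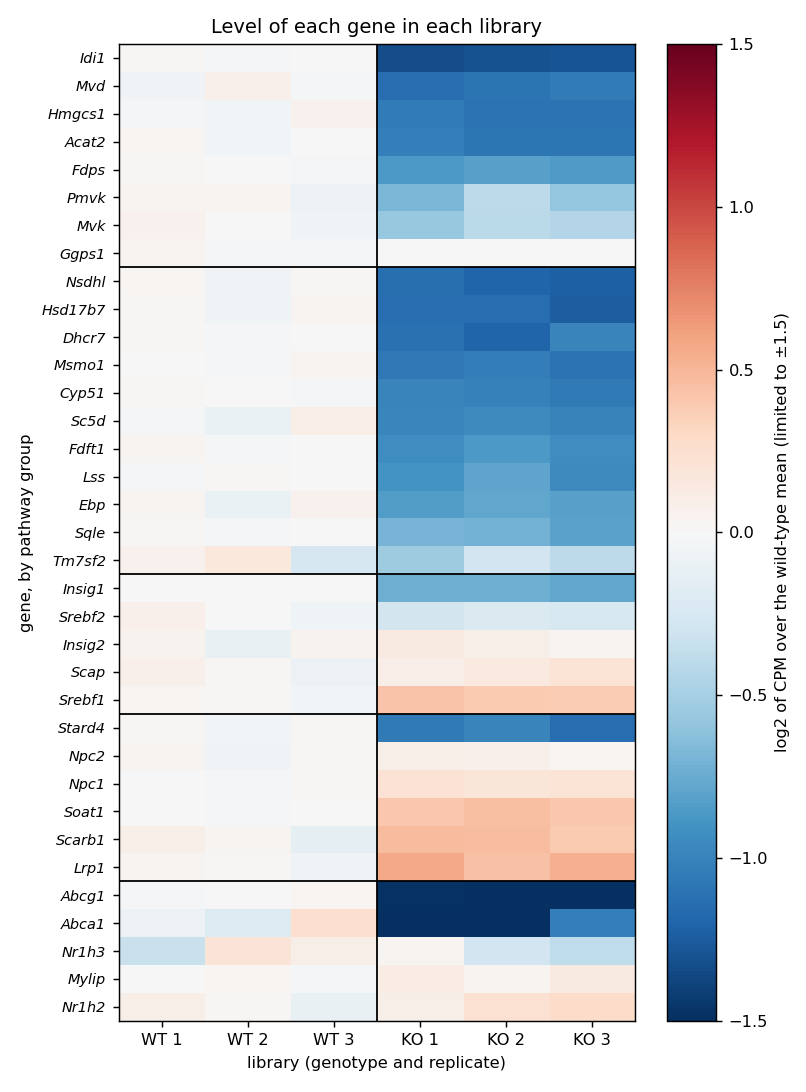
Level of each of the 35 genes in each library (columns: genotype and replicate; rows: genes by pathway group; colour: log2 of CPM over the wild-type mean, limited to ±1.5). Blue fills the 3 knockout columns for 18 of the 19 synthesis enzymes and for Insig1, Stard4, Abca1 and Abcg1, with a paler blue for Srebf2. Abcg1 had 0 counts in knockout libraries 2 and 3, which are drawn at the lower limit.

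The SREBP regulators moved in both directions, with 2 that fell, 2 that rose and 1 not called (median log2 fold change 0.09). Srebf2, which encodes the SREBP that drives the cholesterol genes, stood at 204, 192 and 184 CPM in wild type and at 160.1, 167 and 163 CPM in the knockout. This was a small fall with no overlap, 1.18-fold (log2 −0.24, SE 0.03, edgeR adjusted p = 7.7e-10). Srebf1, which encodes the SREBPs known mainly for fatty acid genes, stood at 30.6, 30.3 and 29.3 CPM in wild type and at 40.4, 39.6 and 39.3 CPM in the knockout. It rose 1.32-fold (log2 0.40, SE 0.05, edgeR adjusted p = 4.7e-10). Per exon length, the level of Srebf2 over that of Srebf1 was 6.04 ± 0.189 in wild type and 3.86 ± 0.124 in the knockout, with no overlap (two-sided exact permutation test p = 0.1, the smallest that 3 libraries against 3 allow). The counts cover the whole gene and do not tell the SREBP1a and SREBP1c transcripts apart.

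Scap, the sterol-sensing escort of the SREBPs, stood at 69.3, 66.7 and 61.9 CPM in wild type and at 70.5, 73.2 and 75.9 CPM in the knockout. The rise was small (log2 0.15, SE 0.04, edgeR adjusted p = 0.0012) and the groups nearly touched. The INSIG genes, whose proteins hold SCAP back, differed. Insig1, itself a known SREBP target, stood at 132, 132 and 131 CPM in wild type and at 79.4, 79.3 and 76.8 CPM in the knockout, a 1.68-fold fall (log2 −0.75, SE 0.04, edgeR adjusted p = 6.3e-30). Insig2 stood at 30.3, 27.0 and 30.3 CPM in wild type and at 32.1, 30.9 and 29.97 CPM in the knockout, with overlapping groups (log2 0.09, SE 0.06, edgeR adjusted p = 0.17). Per exon length, the level of Insig1 over that of Insig2 was 5.05 ± 0.330 in wild type and 2.82 ± 0.0573 in the knockout (two-sided exact permutation test p = 0.1, the smallest possible).

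Of the 6 genes of uptake, transport inside the cell and esterification, 4 rose, 1 fell and 1 was not called (median log2 fold change 0.31). None of the rises reached 1.5-fold. Lrp1, a large endocytic receptor of the LDL receptor family, stood at 1062, 1043 and 993 CPM in wild type and at 1525, 1395 and 1491 CPM in the knockout, and rose 1.42-fold (log2 0.51, SE 0.03, edgeR adjusted p = 3.5e-24). Scarb1, which takes up cholesteryl esters from HDL, rose from 36.7 ± 2.96 to 50.05 ± 1.46 CPM (log2 0.45, SE 0.05). It lies on chromosome 5, and set against that chromosome's median its difference was 0.26. Soat1, which esterifies cholesterol for storage, stood at 214, 212 and 215 CPM in wild type and at 283, 292 and 282 CPM in the knockout (log2 0.42, SE 0.03). For these 3 genes every knockout library was above every wild-type library.

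Npc1 and Npc2 carry cholesterol out of lysosomes. Npc1 rose slightly, from 70.3 ± 0.631 to 80.8 ± 1.15 CPM (log2 0.20, SE 0.04, edgeR adjusted p = 7.8e-06). Npc2 stood at 232 ± 7.25 and 243 ± 4.71 CPM with overlapping groups (log2 0.06, SE 0.03, edgeR adjusted p = 0.060). It passed the threshold without wild-type replicate 1 (log2 0.08, edgeR adjusted p = 0.039). Stard4, a soluble carrier that moves cholesterol between membranes and is a known SREBP target, went against the rest of this group. It stood at 98.8, 95.4 and 99.2 CPM in wild type and at 46.9, 49.1 and 44.4 CPM in the knockout, a 2.09-fold fall (log2 −1.06, SE 0.04, edgeR adjusted p = 1.7e-34).

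Among the LXR and efflux genes, Abcg1, Abca1 and Nr1h3 had the lowest levels of the 35, and the counts of the efflux pumps were lower in the knockout. Of the 5 genes, 2 fell, 1 rose and 2 were not called. Their median log2 fold change was −0.22, with no stable direction: it was −0.053 without Abcg1, which a filter at 1 CPM removed, and 0.024 after the chromosome medians were subtracted. Abca1, which loads cholesterol onto apolipoprotein A-I, had 35, 41 and 51 counts in the wild-type libraries and 12, 15 and 22 in those of the knockout, or 1.59 ± 0.275 against 0.602 ± 0.162 CPM (log2 −1.39, SE 0.28, edgeR adjusted p = 1.8e-05). Abcg1, which exports cholesterol to HDL, had 10, 13 and 12 counts in the wild-type libraries and 4, 0 and 0 in those of the knockout. It passed the threshold (edgeR adjusted p = 8.9e-05), but only its wild-type libraries carried it past the filter on low counts. Its call is therefore not evidence of a fall by itself. The fitted log2 fold change of −3.03 (SE 0.68) ranged from −6.58 without knockout replicate 1 to −2.46 without knockout replicate 3. This fold change depends on the prior count, so that its size is poorly known. Neither gene was above 2 CPM in any library.

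The receptors themselves differed little. Nr1h2 (LXR-beta) stood at 26.0, 24.8 and 22.6 CPM in wild type and at 26.0, 28.7 and 29.5 CPM in the knockout. The lowest knockout library and the highest wild-type library were almost equal. It rose 1.15-fold (log2 0.20, SE 0.06, edgeR adjusted p = 0.0034) and missed the threshold without wild-type replicate 3 (log2 0.15, edgeR adjusted p = 0.054). Nr1h3 (LXR-alpha) had 24 to 44 counts in every library and was not called (log2 −0.22, SE 0.25, edgeR adjusted p = 0.47). Mylip, the LXR-induced ligase that degrades LDL receptors, was not called (log2 0.10, SE 0.06, edgeR adjusted p = 0.16), with 23.6 ± 0.512 CPM in wild type and 25.3 ± 0.787 CPM in the knockout, although every knockout library was above every wild-type library.

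Levels of different genes were compared as RPKM, that is, CPM per kilobase of exon. Msmo1 was the most abundant in wild type at 178 ± 4.14 RPKM, followed by Acat2 at 128 ± 3.27, Fdps at 128 ± 1.82 and Hmgcs1 at 108 ± 4.17 RPKM. Acat2 and Fdps did not differ beyond their spread. In the knockout, Lrp1 came first at 98.7 ± 4.53 RPKM, ahead of Msmo1 at 84.9 ± 1.85, Npc2 at 74.5 ± 1.44 and Fdps at 71.2 ± 1.49 RPKM. The enzymes spanned a wide range, down to Dhcr7 at 12.3 ± 0.187, Ggps1 at 10.0 ± 0.234 and Tm7sf2 at 4.73 ± 0.685 RPKM in wild type. The 4 enzymes that fell by less than 1.5-fold or were not called, Mvk, Pmvk, Ggps1 and Tm7sf2, were all at or under 23.4 RPKM in wild type, and Dhcr7, Hsd17b7 and Mvd in the same range fell more than 2-fold. Abcg1, Abca1 and Nr1h3 were the lowest of the 35 in both genotypes, at 0.0753, 0.155 and 0.637 RPKM in wild type.

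**Figure D3:**
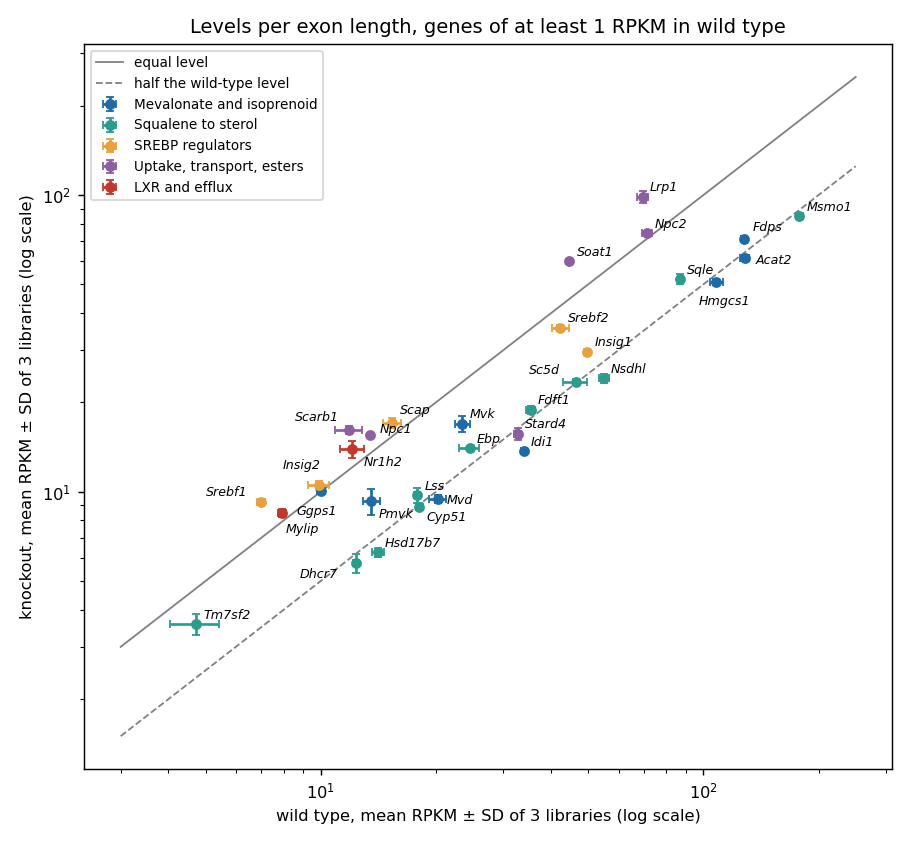
Level per exon length in wild type (x axis) and knockout (y axis), as mean RPKM ± SD of 3 libraries on log scales, for the 32 genes of at least 1 RPKM in wild type. Most synthesis enzymes lie along the dashed line of a 2-fold lower level, from Msmo1 at 178 RPKM to Dhcr7 at 12.3 RPKM in wild type, while Lrp1, Soat1 and Scarb1 lie above the line of equal levels.

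The median change differed between chromosomes. Chromosomes 3, 5 and 12 had medians of 0.30, 0.19 and 0.19, and chromosome 2 had −0.24. Fdps, Pmvk, Mvk, Cyp51 and Insig1 fell although they lie on chromosomes 3 and 5. Against the median of its own chromosome, the difference of Fdps was −1.14, of Cyp51 −1.22 and of Insig1 −0.94. For the 19 enzymes the median was −1.002 on that scale, against −0.98 without it. Npc2, on chromosome 12, turned from 0.06 to −0.12.

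Neighbouring parts of lipid metabolism were described by 8 further lists with 68 tested genes, of which 29 fell and 23 rose. The shares over all tested genes were 31.2% and 30.3%. The lipogenic genes known as SREBP1 targets came closest to the sterol enzymes, with 12 of 13 falling and 0 rising, and a median log2 fold change of −0.48. Fads2, a fatty acid desaturase, fell from 109 ± 5.04 to 51.6 ± 2.599 CPM (log2 −1.08, SE 0.04). The desaturase genes Scd2 and Fads1 fell by 0.80 and 0.77 on the log2 scale (SE 0.03 each). Acly, which supplies cytosolic acetyl-CoA, fell by 0.48 (SE 0.03). These genes fell while Srebf1 rose. Only 4 of the 13 fell at least 1.5-fold, against 15 of the 19 sterol enzymes, and the difference between the lists was not tested. Both of the 2 other late sterol enzymes tested fell (log2 −0.58 and −0.36), the second of them Lbr, a sterol C14 reductase of the nuclear envelope.

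The side branches that use mevalonate products showed no common direction. Of 12 genes of dolichol and ubiquinone synthesis and protein prenylation, 3 fell, 3 rose and 6 were not called (median log2 fold change 0.01). These counts are near the shares over all tested genes, 31.2% lower and 30.3% higher. Coq2 rose (log2 0.37, SE 0.06), as did Rabggtb (log2 0.12, SE 0.04), and Pdss1 and Pggt1b fell (log2 −0.32, SE 0.07, and −0.17, SE 0.06). Coq2, Rabggtb, Pdss1 and Pggt1b lie on chromosomes 5, 3, 2 and 18 and moved in the direction of those chromosomes' medians. Set against those medians, their differences were 0.18, −0.18, −0.08 and −0.08 in that order.

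Of 14 genes of SREBP cleavage and of sterol-regulated protein degradation, 8 rose, 2 fell and 4 were not called, with none at 1.5-fold and a median log2 fold change of 0.14. Over all tested genes 30.3% rose and 31.2% fell. Erlin1, which binds INSIG-linked ligases at the endoplasmic reticulum, rose (log2 0.41, SE 0.04), as did the SREBP site-1 protease gene Mbtps1 (log2 0.25, SE 0.03). Tmem97, a sterol-responsive membrane protein, fell (log2 −0.42, SE 0.04).

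Other LXR targets and lipoprotein genes were divided, with 2 higher and 2 lower of 4 tested, against 30.3% and 31.2% of all tested genes. Apoe, an apolipoprotein that accepts effluxed cholesterol, rose from 1.80 ± 0.241 to 6.30 ± 0.473 CPM (log2 1.80, SE 0.15) and Arl4c from 44.9 ± 0.692 to 84.0 ± 1.17 CPM (log2 0.90, SE 0.04). Lpcat3, a phospholipid-remodelling enzyme, fell (log2 −0.79, SE 0.04), as did Pltp, a phospholipid transfer protein (log2 −0.41, SE 0.06). Abcg5, Abcg8 and Smpdl3a had too few counts to test. Apoe and Arl4c thus moved opposite to Abca1.

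Further receptors and carriers went both ways, where 30.3% of all tested genes rose and 31.2% fell. Of 7 tested receptor genes, 4 rose and 1 fell (median 0.19). Vldlr, a lipoprotein receptor, rose from 11.9 ± 1.01 to 18.4 ± 0.629 CPM (log2 0.63, SE 0.08). Lrpap1, the chaperone of LRP1, rose (log2 0.43, SE 0.05), and so did Scarb2 (log2 0.35, SE 0.04) and Snx17 (log2 0.19, SE 0.04), all 3 on chromosome 5. Of 13 tested transport genes, 6 fell and 4 rose (median 0.03). Cav1, the caveola protein that binds cholesterol, fell from 820.4 ± 19.5 to 467 ± 4.35 CPM (log2 −0.81, SE 0.03), and Nceh1, a cholesteryl ester hydrolase on chromosome 3, rose (log2 0.71, SE 0.05). Lipa, the lysosomal acid lipase, and Osbpl2, an oxysterol-binding protein, fell (log2 −0.33 and −0.35, SE 0.04 and 0.05). Among enzymes that form or clear oxysterols, Cyp39a1 fell from 5.50 ± 0.846 to 1.70 ± 0.192 CPM (log2 −1.69, SE 0.16), while Cyp46a1 (log2 0.97, SE 0.18) and Cyp7b1 (log2 0.39, SE 0.13) rose, and Ch25h had no count in any library.

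**Figure D4:**
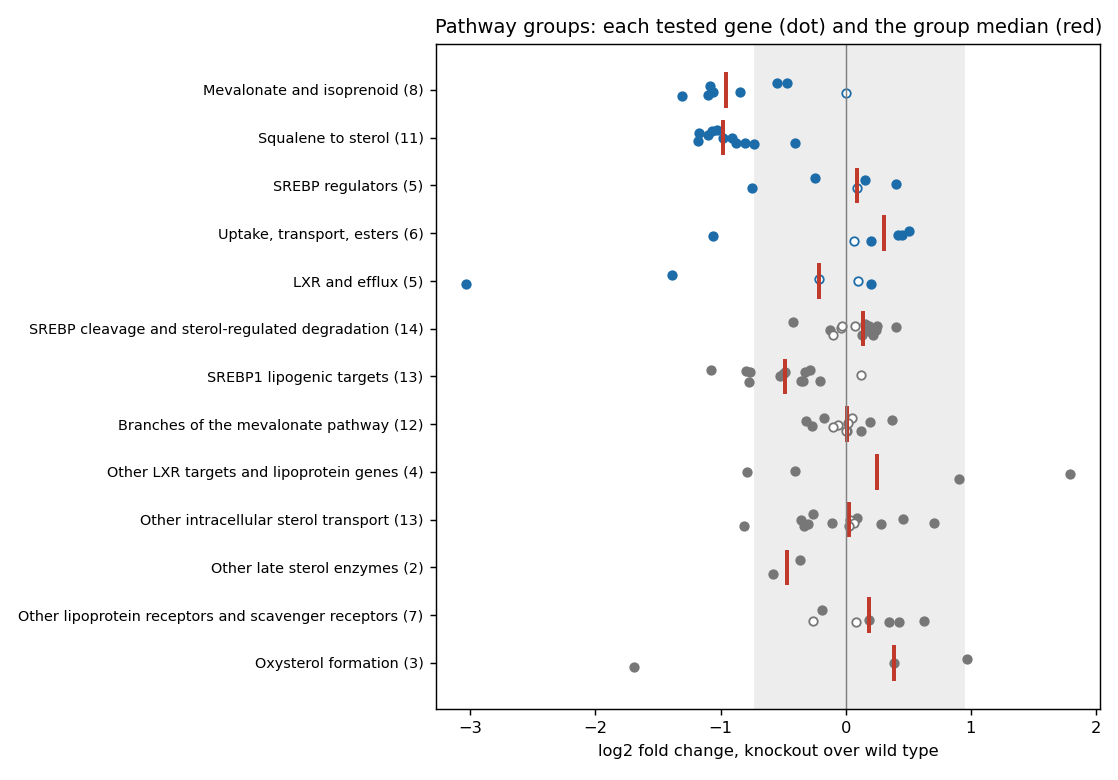
Fold change of every tested gene in the 5 sterol groups (blue) and in 8 neighbouring lists (grey), with the number of tested genes in parentheses (x axis: log2 fold change, knockout over wild type). Filled dots passed an adjusted p under 0.05, red bars are medians and the grey band spans the 5th to 95th percentile of all tested genes. The medians of both synthesis branches, −0.95 and −0.98, lie left of that band, and the lipogenic list follows at −0.48.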

How the data were processed

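RNA-seq of 6 libraries, 3 wild type and 3 Ube3d knockout, was analysed from the table of raw read counts per gene that the authors deposited. Libraries were stranded and depleted of ribosomal RNA, per the labels' protocols. STAR 2.6.1d, featureCounts 1.6.3 and the builds mm10 and GRCm38 come from the submitters' processing notes, which give no role or order. The sources used here give neither the strand setting nor the treatment of reads with several alignments. The exon length of each gene is the deposited length column. A second deposited count table, of downstream-of-gene regions, names no genes and was not used here.

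The count test was that of edgeR 4.0.16, run in R 4.3.3 (quasi-likelihood F test, robust, TMM, filterByExpr at its defaults of 10 for the minimum count and 15 for the total, genotype only), two-sided, with Benjamini-Hochberg adjustment over 12947 genes. Each SE was taken as |log2 fold change|/√F. CPM and RPKM were computed from the counts. Depth was 23767181 to 29389480 counts per library, so genes under 1 CPM rest on few reads. Groups and replicate numbers come from the titles. Replicates differed by more than sampling noise (chi-square per gene 2.02 to 6.21), and none was counted as a duplicate. On simulated counts of 12947 genes for this comparison, 62% of 50 genes changed 1.25-fold and 86% of 50 changed 1.5-fold were called. There were 7 false calls among the genes left unchanged. The simulation changed a far smaller share of genes than the 61.4% called in the data, so its false calls may not carry over. Promoters were taken from the RefSeq table, and transcripts of similar sequence from GENCODE M21 with blastn. The build of the counts' coordinates is that of the notes, and the promoter table is GRCm38.p6.

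The 35 genes, the 8 further lists, the cell type markers and the tests were chosen with earlier results of these data known. Named genes were all 35, and of each further list at most 4 with the smallest adjusted p. Genes of similar sequence or with overlapping exons were named after their values were seen. The alternatives tried were DESeq2 1.42.0, limma-voom (limma 3.58.1), scaling by RLE, testing without a count filter or only genes at 1 CPM in 3 libraries, the replicate number as a block, leaving out each library or Rn45s, and subtracting the chromosome median. Tables were made with pandas 2.3.3 and NumPy 2.4.6 in Python 3.11.15, and plots with matplotlib 3.10.9.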

Additional observations from a re-analysis of the deposited data

How the results depend on the processing

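The counts of sterol genes that fell (23), rose (7), or fell at least 1.5-fold (19) stayed within 1.5 times under every alternative run, and leaving out 1 library gave 23, 6 to 8 and 19 to 20. With the replicate number as a block, 23 fell and the median of the 19 enzymes was −0.98. The numbers do not pair the libraries (correlation of same-numbered deviations −0.05 to −0.03, and no library correlated best with its own number). Leaving out 1 library gave medians of −1.02 to −0.92 for the 19 enzymes and for the sterol branch, 0.031 to 0.110 for the SREBP regulators, 0.29 to 0.31 for uptake and transport and −0.35 to −0.11 for LXR and efflux, whose median was −0.053 with a filter at 1 CPM, which left 4 genes. After subtracting chromosome medians the medians were −1.03 for the mevalonate branch, −1.002 for the 19 enzymes, 0.27 for uptake and transport, and 0.024 for LXR and efflux, which changed sign. Ggps1, near 0, changed sign with DESeq2 (−0.0030), with no count filter (−0.0079) and without wild-type replicate 2 or 3 (leave-one-out range −0.010 to 0.017). Npc2 also passed the threshold without Rn45s (adjusted p = 0.027), which took 7.28% to 8.91% of wild-type and 9.68% to 10.2% of knockout counts, and with a filter at 1 CPM (adjusted p = 0.029). Depth limits Abca1, Abcg1 and Nr1h3, with at most 51 counts in a library.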
